A study of Mus musculus with 8 samples.

Results

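The comparison described here sets islets infiltrated by T cells under neutralised interferon-γ (IFN-γ), taken on day 3 after transfer, against untreated islets. It rests on 2 of the 8 arrays of the series, the protected array of day 3 and the untreated array, which were chosen by their titles. All mice were NOD.Scid, a strain prone to autoimmunity that makes no T or B lymphocytes of its own. The protected mice received CD4+ T cells of the BDC2.5 line on day 0, and these carry 1 transgenic receptor against a beta cell granule antigen. They also received an antibody against IFN-γ on 2 occasions, the day before the T cells and 2 days after them. The untreated mice received neither cells nor antibody, and no group received a control antibody or antibody alone. Each array held amplified RNA of islets cut by laser capture from 5 mice and pooled, so there is 1 measurement per group, no spread between mice and no test. Of 18194 genes with a probe set of their own, 4962 reached an intensity of 10 or more on at least 1 of the 2 arrays and were kept. Differences are given on the log2(intensity + 2) scale, protected day 3 minus untreated, which understates the change of dim genes. A gene is called higher or lower where that difference is 2-fold or more.

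IFN-γ is the signature cytokine of T helper 1 cells. Through its receptor and the JAK kinases it turns on guanylate-binding proteins (GBPs), immunity-related GTPases (IRGs), antigen presentation by major histocompatibility complex (MHC) molecules, and the chemokines that attract T cells bearing the receptor CXCR3. It also drives macrophages into the so-called classical, microbicidal state. Macrophages that see interleukin-4 or interleukin-13 through STAT6 instead take on an alternative state, marked by arginase, chitinase-like and resistin-like proteins and the chemokines CCL17, CCL22 and CCL24. In islets of diabetes-prone mice both T cells and myeloid cells infiltrate before beta cells are lost.

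The untreated and protected arrays had similar overall intensity distributions. Their median intensities were 3.42 and 3.14 and their 99th percentiles 94.9 and 86.6. Some housekeeping genes were nonetheless called higher on the protected array, among them Gapdh (1.33), Actb (1.26) and the elongation factor gene Eef1a1 (1.40). Of 40 ribosomal protein genes at intensity 10 or more on either array, 4 were higher and 1 lower, with a median of 0.32, so differences near 2-fold are of the size seen in such genes. Both lacked the spiked hybridisation controls, with medians of 2.29 and 1.48 against 551 to 1712 on the arrays of days 4 to 8. They differed in how far the 3' end of a transcript outshone its 5' end, a sign of RNA quality and of the length of the amplified copies. This ratio was 1.86 and 5.01 for Actb and 5.14 and 8.49 for Gapdh, in that order, and the part of this difference in the results below was not tested. Defining markers bore out the tissue, with Ins2 (4277 and 4887) and the glucagon gene Gcg (1996 and 2390) among the brightest transcripts of both arrays. The T cell markers Cd3d, Cd3e, Cd3g and Cd4 were all under intensity 10 on both arrays, the brightest being Cd3e at 1.96 and 7.56. The 4 defining eosinophil markers Epx, Prg2, Ccr3 and Siglecf stayed between 2.18 and 4.06.

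Most genes lay close together on the 2 arrays, and those that differed were mostly higher in infiltrated islets. Of the 4962 genes kept, 253 (5.10%) were higher and 85 (1.71%) lower on the protected array of day 3, 338 (6.81%) in all. The median difference was −0.07 and the SD over genes 0.62. At 4-fold or more, 73 genes were higher and 8 lower, and at 8-fold or more 14 were higher and 0 lower. Genes that passed the filter through 1 array alone could hardly be equal on both. Of the 690 kept through the protected array alone 25.2% were called higher, of the 628 kept through the untreated array alone 8.76% were called lower, and of the 3644 at 10 or more on both arrays 2.17% were higher and 0.823% lower. Counts of list members are to be read against these shares. Of the 41 lists of 732 genes used below, 647 genes had a probe set and 274 were kept. Some genes belong to more than 1 list, so the counts of different lists are not separate.

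**Figure D1:**
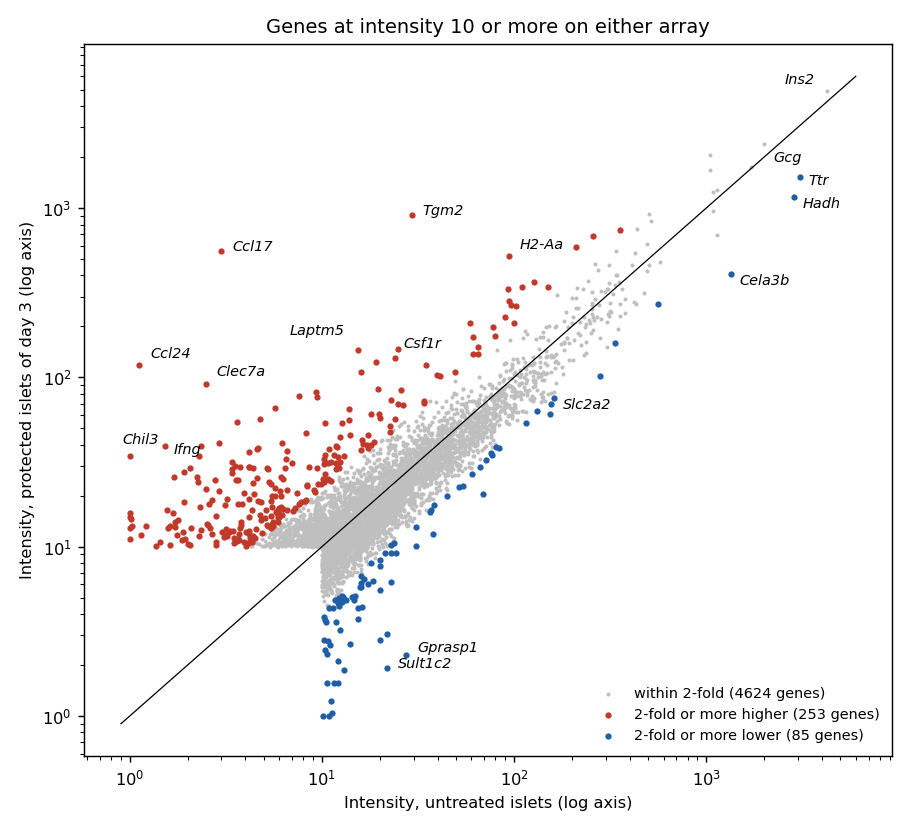
Intensity of each of the 4962 genes kept, in untreated islets (horizontal, log axis) and in protected islets of day 3 (vertical, log axis), 1 pooled array each, with the line of equality. Red points are the 253 genes called higher and blue points the 85 called lower, with Ccl17, Ccl24 and Tgm2 farthest above the line and the brightest lower genes, Ttr, Hadh and Cela3b, at the right.

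Chemokine genes held the largest differences of all. Every one of the 10 CC chemokine or receptor genes kept, of 22 measured, was higher, and all 10 passed the filter through the protected array alone. Over all 22 measured the median was 1.02, against −0.05 over all 18194 genes. Ccl17, whose product draws T cells bearing the receptor CCR4, stood at 3.00 in untreated and 559 in protected islets (difference 6.81), the largest value of the comparison. Ccl24, a chemokine for eosinophils, came next with 1.12 and 118 (5.27). Ccl11, which acts on the same eosinophil receptor, stood at 2.49 and 22.04 (2.42).

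Chemokines that attract monocytes and other myeloid cells were higher as well, and reached lower levels on the protected array than Ccl17 and Ccl24. Ccl9 stood at 3.61 and 54.6 (3.33), though its second probe set, dim on both arrays, gave 0.49. Ccl6 stood at 1.56 and 16.5 (2.38), and its second probe set gave 2.74. Ccr2, the receptor that brings monocytes out of the blood, stood at 3.40 and 27.1 (2.43), with 3 further probe sets, all dim, between −0.13 and 0.08. The other members higher were Ccl8, Ccl1, Ccl22 and the T cell chemokine gene Ccl5, with protected levels between 11.7 and 12.8.

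Of the 16 CXC chemokine and receptor genes measured, only Cxcl1 and Cxcl10 were kept, both through the protected array alone, and both were higher. The median over the 16 was 0.15. Cxcl1, which attracts neutrophils, stood at 6.23 and 40.9 (2.38), with further probe sets at 1.95 and 2.00. Cxcl10, a ligand of CXCR3, stood at 2.07 and 10.3 (1.59). Cxcl9, another CXCR3 ligand and a classical IFN-γ target, stayed under the filter at 1.20 and 8.60. Neutrophil markers did not accompany Cxcl1, since S100a8, S100a9 and Csf3r stood at 4.32, 1.83 and 10.1 in untreated and at 4.79, 2.41 and 8.71 in protected islets.

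Genes of alternative macrophage activation formed another list with large differences, which shares Ccl17, Ccl24 and Ccl22 with the chemokine list above. Of 21 measured, 12 were kept and 11 were higher, while Il4ra, the receptor of interleukin-4, stood at 12.1 and 16.9 (0.42). All 10 that passed through the protected array alone were higher. The median over the 21 measured was 1.58. Tgm2, a protein-crosslinking transglutaminase, was the brightest, at 29.4 and 907 (4.86), and its 3 other bright probe sets gave 2.74 to 4.95. It was visible in untreated islets too, unlike most of this set.

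The remaining members were near the bottom of the scale in untreated islets. Chil3, a chitinase-like protein of macrophages, stood at the floor of 1 and at 34.3 (3.59). Arg1, which encodes arginase, stood at 4.64 and 38.02 (2.59), and Retnla, which encodes resistin-like alpha, at 4.38 and 23.6 (2.01). Egr2, a zinc-finger transcription factor, stood at 1 and 15.8 (2.56), with 1.79 from its second probe set. Lower still were the mannose receptor gene Mrc1 (2.67 and 11.95) and the haemoglobin scavenger receptor gene Cd163 (1.37 and 10.1). Dab2, an endocytic adaptor, stood at 4.60 and 25.6 (2.06), although its 3 other probe sets, all dim, gave 0.04 to 0.21. The cytokines that drive this state were not visible, Il4 at 1.69 and 2.98 and Il13 at 1.40 and 2.79.

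STAT6 binds a palindrome of TTC and GAA with 4 bases between them. The promoters of higher members were searched for it, and for the interferon-response form GAAA, 2 bases, GAAA, on both strands of the 250 bases before each RefSeq start (GRCm38.p6). RefSeq held promoters for 8 of the 11 higher alternative activation genes, 13 windows in all. The 4-base form was found in 2 of the 13, of Ccl17 and Retnla, against 5.85% of all 32851 promoters. Several of the 13 windows belong to Egr2. The interferon-response form was in 0 of the 13. Among higher MHC class I genes the 4-base form was in 1 of 7 windows, that of Psmb10. The windows of Ccl17 and Retnla are shown because both genes were higher and hold the 4-base form, with that match in capitals, 5′ to 3′. A match is letters in a window and no evidence of binding.
Ccl17 (chr8:94810203-94810452, plus strand): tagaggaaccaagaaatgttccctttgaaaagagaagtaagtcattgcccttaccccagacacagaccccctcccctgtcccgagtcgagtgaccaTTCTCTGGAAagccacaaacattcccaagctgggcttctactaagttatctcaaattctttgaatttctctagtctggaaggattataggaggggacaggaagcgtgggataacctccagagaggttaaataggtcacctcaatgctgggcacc
Retnla (chr16:48842359-48842608, plus strand): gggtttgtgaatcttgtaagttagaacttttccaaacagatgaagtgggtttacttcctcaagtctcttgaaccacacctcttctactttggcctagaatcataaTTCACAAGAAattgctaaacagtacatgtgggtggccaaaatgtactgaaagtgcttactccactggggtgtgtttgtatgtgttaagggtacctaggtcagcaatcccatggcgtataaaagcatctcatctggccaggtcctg

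On the diabetogenic array of day 3, which received the same T cells and no antibody, the same genes stood at other levels. This array shares the untreated control with the comparison above, so the values are given side by side only. Ccl17 stood there at 132 and Tgm2 at 218, below 559 and 907 in protected islets. Chil3 (2.75), Ccl24 (4.20), Retnla (6.17), Arg1 (11.1), Mrc1 (2.68) and Cd163 (2.29) were closer to their untreated levels. Egr2 (6.57) and Ccl22 (9.03) were not all near theirs, with differences from untreated of 1.51 and 1.09, against 2.56 and 1.41 in protected islets. Over the 21 list members measured, the median difference from untreated was 1.58 in protected and 0.40 in diabetogenic islets.

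**Figure D2:**
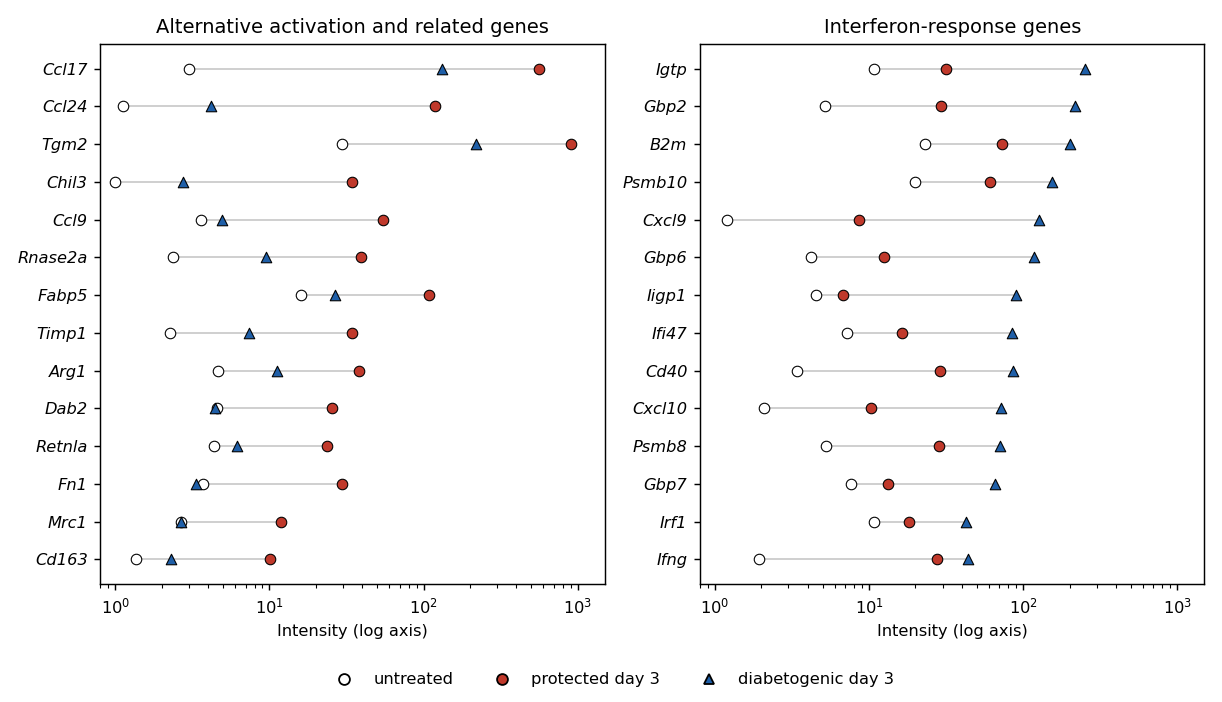
Intensity (log axis) of 14 alternative activation and related genes (left) and 14 interferon-response genes (right) on 3 arrays, with 1 pooled array per symbol. The genes were picked by hand and are not whole lists, and the right panel includes Ifng itself. For the genes shown, the protected level (red) is the highest of the 3 on the left. On the right it lies between untreated (white) and diabetogenic (blue triangle). The signalling genes Socs3 and Jak2, not shown, had protected levels of 76.6 and 40.3 and diabetogenic levels of 56.9 and 31.2.

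Rnase2a, Fabp5, Timp1 and Fn1, which belong to 4 other lists, were higher as well. Rnase2a, an eosinophil-type ribonuclease, stood at 2.35 and 39.4 (3.25), and the fatty acid-binding protein gene Fabp5 at 16.0 and 108 (2.60). Timp1, an inhibitor of metalloproteinases, stood at 2.28 and 34.5 (3.09). Fn1, the fibronectin gene, stood at 3.73 and 29.6 (2.46), with 0.69 from a second, dim probe set. The diabetogenic array of day 3 gave 9.49, 26.7, 7.32 and 3.36 for these 4 genes.

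The later protected arrays gave high levels for some leading genes and not for others. Ccl17 stood at 2417, 3667 and 1070 on days 4, 5 and 8, and Ccl24 at 476, 659 and 56.0. Chil3 stood at 352, 449 and 140 on those days and Rnase2a at 382, 260 and 133. Crybb3, a lens crystallin gene that stood at 1.53 in untreated islets and 39.5 on day 3 (3.55), was at 61.8, 17.9 and 2.53 on those days. The later arrays carry spiked controls, which the array of day 3 does not, and how each was scaled is not known.

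**Figure D3:**
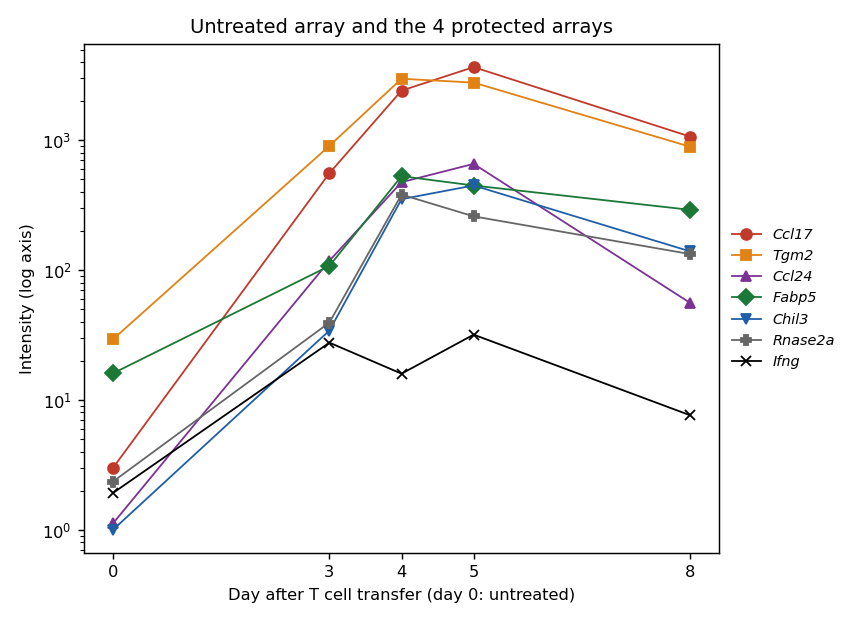
Intensity (log axis) of 7 genes on the untreated array (day 0) and in protected islets of days 3, 4, 5 and 8, 1 pooled array per point. Apart from Ifng, which stays between 7.62 and 31.8 after day 0, each gene is higher on days 4 and 5 than on day 3.

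Some transcripts shared by leukocytes were higher in protected islets. Of 19 measured, 9 were kept, 7 were higher and 0 lower, and 10 stayed under the filter. Of the 9 kept, 7 passed through the protected array alone, 5 of them higher, and the median over all 19 was 0.42. Laptm5, a lysosomal protein of blood cells, stood at 15.4 and 146 (3.09), and a second bright probe set gave 1.47. Arhgdib, a gene of blood cells, stood at 2.06 and 29.2 (2.94), and the surface glycoprotein gene Cd52 at 4.59 and 37.5 (2.58). Ptprc, which encodes the pan-leukocyte marker CD45, was higher too, at 5.42 and 23.4 (1.77), though a second, dim probe set gave −0.60. The diabetogenic array of day 3 gave 111 for Laptm5, 23.8 for Arhgdib, 45.5 for Cd52 and 39.4 for Ptprc. Its median difference from untreated over the 19 measured was 0.75. For Cytip the probe set used gave 2.25, whereas a second bright one gave −1.29, so its direction depends on the probe set. In pooled tissue RNA of this kind more infiltrating cells cannot be told apart from more RNA per cell.

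Several macrophage and monocyte genes were higher too. Of 27 measured, 13 were kept and 9 were higher, by 1.34 to 2.56. Of the 13, 9 passed through the protected array alone, 6 of them higher, and the median over all 27 was 0.87. Lyz1 stood at 19.1 and 123 (2.56), Lyz2 at 4.18 and 29.8 (2.36), and Csf1r, the receptor for the macrophage growth factor, at 23.9 and 129 (2.34), with 2.90 from a second bright probe set. On the diabetogenic array of day 3 these 3 stood at 120, 28.8 and 80.3, and the median over the 27 was 0.83. The complement gene C1qb (7.04 and 10.8) and Adgre1 (7.58 and 10.5), which encodes the resident macrophage antigen F4/80, lay within 2-fold. Of 16 Fc receptor and lectin genes measured 6 were kept, 5 through the protected array alone, and 3 were higher, while Fcgr1 (0.52), Fcgr2b (0.71) and Sirpa (0.18) lay within 2-fold. Clec7a, the beta-glucan receptor dectin-1, stood at 2.49 and 91.8 (4.38). Clec4n, a second fungal lectin receptor, stood at 2.78 and 24.9 (2.49), and the Fc receptor gene Fcgr3 at 2.69 and 18.9 (2.16). In diabetogenic islets of day 3 Clec7a, Clec4n and Fcgr3 had levels of 80.8, 4.83 and 8.62. Of 16 dendritic cell genes measured 7 were kept and 4 were higher, all through the protected array alone, namely Ccl17, Itgax (3.20 and 19.2, 2.03), Ccl22 and Cd83 (3.79 and 13.4, 1.41). The dendritic cell markers Flt3, Zbtb46 and Cd209a stayed under 6.5 on both arrays.

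Genes of antigen presentation by MHC class II were all higher where they were kept. These were 7 of 11 measured, higher by 2.11 to 3.11, and 5 of the 7 passed through the protected array alone. H2-Aa, which encodes the class II alpha chain, stood at 93.7 and 519 (2.44), and its 3 other probe sets gave 1.61 to 3.34. Ctss, the protease that trims the invariant chain, stood at 24.8 and 147 (2.48), and Cd74, the invariant chain itself, at 4.38 and 29.1 (2.29). H2-Ab1 had the largest value (4.76 and 56.6, 3.11), but another bright probe set of the gene gave −0.36. Ciita, the master regulator of these genes, did not reach the filter, at 6.86 and 6.98. Diabetogenic islets of day 3 had similar levels, with H2-Aa at 413, Ctss at 133 and Cd74 at 22.96, and the list medians over the 11 measured were 2.12 and 1.98. In untreated islets H2-Aa and Ctss were above the filter, while Cd74, H2-Ab1 and H2-Eb1 (2.59) were under it on the probe sets used.

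**Figure D4:**
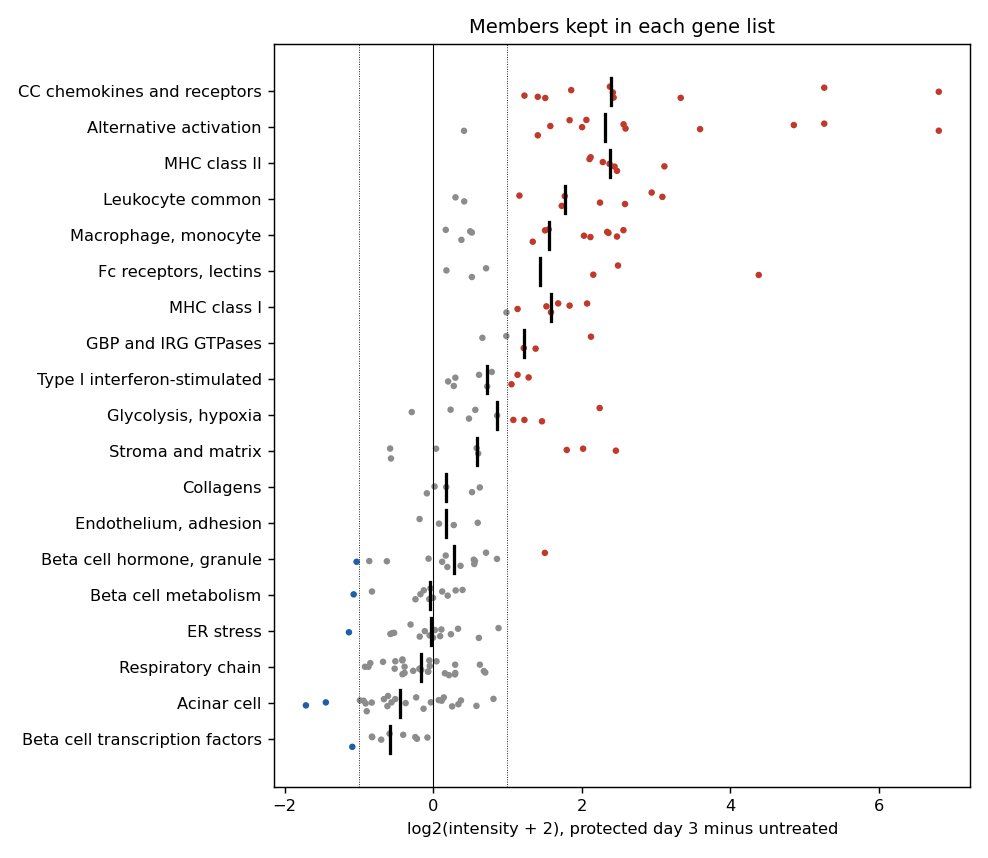
Difference of each kept member (point) between protected day 3 and untreated islets, in log2(intensity + 2), for 19 gene lists, 1 pooled array per group. Vertical bars are list medians over members kept, dotted lines mark 2-fold, and red is higher and blue lower. The chemokine, alternative activation and class II lists lie farthest to the right, and the beta cell transcription factors lie wholly to the left of 0. Members that passed the filter through the protected array alone, 10 of 10 CC chemokine and 10 of 12 alternative activation genes, could hardly lie elsewhere. Over members measured the medians were 1.02 for CC chemokines, 1.58 for alternative activation, 2.12 for class II and 1.53 for class I.

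T cell transcripts themselves were sparse. Of 16 T cell markers measured, Thy1 (4.77 and 15.4, 1.36) and Zap70 (11.8 and 10.5, −0.15) were kept, and Thy1 is also made by stromal cells. Ifng was the brightest effector transcript, at 1.92 and 27.6 (2.92), so the gene of the neutralised cytokine was above its untreated level in protected islets. Gzma and Gzmb, which encode killer-cell granzymes, stood at 5.13 and 16.6 (1.38) and at 2.30 and 11.6 (1.66). Bhlhe40, a transcription factor of activated T cells, stood at 3.22 and 11.6. These 4 effector genes passed the filter through the protected array alone. The other 22 of 26 effector genes measured were under intensity 10 on both arrays, including Tnf (3.22 and 3.31), Il2 (1.23 and 1.08) and Il17a (3.24 and 4.13). The median over the 26 was 0.04. The diabetogenic array of day 3 gave 43.8 for Ifng, 37.8 for Gzma and 21.8 for Gzmb.

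Genes that IFN-γ induces were higher for some members and not for others. Of 11 GBP and IRG genes measured 5 were kept, 4 of them through the protected array alone, and 3 were higher. Gbp2 stood at 5.17 and 29.3 (2.13), with 1.92 from its second probe set. Igtp stood at 10.8 and 31.4 (1.38) and Gbp6 at 4.18 and 12.4 (1.22), while Ifi47 (0.99) and Gbp7 (0.66) fell short of 2-fold. The other 6, Iigp1 among them at 4.54 and 6.75, stayed under 10 on both arrays. On the diabetogenic array of day 3 the levels were 216 for Gbp2, 250 for Igtp, 118 for Gbp6 and 89.6 for Iigp1. The list medians over the 11 measured were 0.67 in protected and 2.91 in diabetogenic islets, both against the same untreated array.

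The upstream window of Gbp2 is shown because the gene was above its untreated level although the cytokine was neutralised. Capitals mark the GAAA, 2 bases, GAAA form, here on the opposite strand, which 2.98% of all promoters hold.
Gbp2 (chr3:142620413-142620662, plus strand): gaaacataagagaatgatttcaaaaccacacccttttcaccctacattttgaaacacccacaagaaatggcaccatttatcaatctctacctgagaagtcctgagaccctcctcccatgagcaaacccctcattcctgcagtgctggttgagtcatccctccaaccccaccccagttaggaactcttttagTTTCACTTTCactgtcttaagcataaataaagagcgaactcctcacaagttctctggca

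Among signalling genes of the pathway 5 of 14 measured were kept and 3 were higher. Of the 5, 2 passed through the protected array alone, both higher, and the median over the 14 measured was 0.51. Socs3, a feedback inhibitor of cytokine receptors, stood at 9.43 and 76.6 (2.78), with 2.70 from a second bright probe set. Irf8, a transcription factor of myeloid cells, stood at 1.58 and 12.8 (2.05), and the kinase gene Jak2 at 16.4 and 40.3 (1.20). Irf1, a transcription factor of the interferon response, stood at 10.8 and 18.2 (0.66), within 2-fold, against 42.9 on the diabetogenic array of day 3. Socs1, the feedback inhibitor most tied to IFN-γ, was under the filter at 2.71 and 2.20.

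MHC class I and immunoproteasome genes were mostly higher. Of 11 measured 7 were kept and 6 were higher, Tapbp lying just under 2-fold (0.99). Of the 7, 4 passed through the protected array alone, all 4 higher, and the median over the 11 measured was 1.53. B2m, the light chain of class I, stood at 22.99 and 73.1 (1.59), with 1.76 from a second probe set. Psmb8 stood at 5.27 and 28.6 (2.07) and Psmb10 at 19.8 and 60.8 (1.53), both catalytic subunits of the immunoproteasome. The diabetogenic array of day 3 gave 203, 70.6 and 153 for these 3 genes. Of 26 type I interferon-stimulated genes measured 9 were kept and 3 were higher, by 1.06 to 1.29, namely Ifit1 (3.69 and 11.9), Usp18 (5.91 and 15.4) and Parp14 (17.3 and 38.2). Of the 9, 8 passed through the protected array alone and 2 of these were higher, near the 25.2% of all genes kept that way. The median over the 26 measured was 0.29. Cd40, which receives help from T cells, stood at 3.41 and 28.9 (2.51) and Cd274, the gene of the checkpoint protein PD-L1, at 3.09 and 11.4 (1.40). In diabetogenic islets of day 3 these 2 had levels of 85.3 and 45.5.

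The rest of the 20 largest positive differences were those of S100a4 (1.69 and 25.8, 2.91), Srgn (9.26 and 81.8, 2.89), Ms4a6d (2.91 and 40.9, 3.13) and Mcoln1 (2.24 and 25.9, 2.72). Other probe sets gave −0.91 and 1.30 for Ms4a6d, both dim, and 0.25 and 0.27 for Mcoln1. Further higher genes below were named after their values were seen, apart from Lgals3 and Tgfbi. Csf2rb, the beta chain of receptors for the cytokines GM-CSF, interleukin-3 and interleukin-5, stood at 4.16 and 36.3 (2.64). Csf2rb2, a beta chain of the interleukin-3 receptor, stood at 2.51 and 13.6 (1.79). The GM-CSF gene Csf2 was at 1.48 and 4.03. A second, dim probe set of Csf2rb gave −0.87. Cish and Stat3, both in cytokine signalling, gave 1.58 and 1.12. Lgals3, a galectin of macrophages, stood at 5.68 and 65.8 (3.14) and Tgfbi, a matrix protein, at 7.6 and 77.8 (3.06), its 2 other bright probe sets giving 3.27 and 3.46. Cfl1, Arpc2 and Cotl1, whose products bind actin or its nucleator, stood at 94.7 and 281 (1.55), 102 and 264 (1.35) and 39.7 and 103 (1.34). A second, dim probe set gave 0.97 for Cfl1 and −0.07 for Arpc2. The metallothionein genes Mt1 (210 and 592, 1.49) and Mt2 (110 and 340, 1.61), whose products bind metals, had levels of 231 and 187 in diabetogenic islets of day 3.

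The main beta and alpha cell hormone transcripts differed little, whereas Sst was higher. Of 16 hormone and granule genes measured 14 were kept, 1 was higher and 1 lower. Ins2 differed by 0.19, and Gcg by 0.26. Iapp, the amylin gene, stood at 505 and 919 (0.86), with other probe sets from −0.19 to 0.95. Scg5, a chaperone of prohormone convertase, was the higher one, at 127 and 364 (1.51), and Slc30a8, the zinc transporter of insulin granules, the lower one, at 132 and 63.7 (−1.03). Sst, the somatostatin gene of delta cells, was also higher, at 49.5 and 108 (1.09).

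All 13 genes measured in the list of beta cell transcription factors had a negative difference, with a median of −0.48 against −0.05 over all genes. Of the 9 kept, 1 was past 2-fold. That gene was Foxa2, a regulator of endocrine genes, at 71.4 and 32.6 (−1.09). Pdx1, which controls insulin transcription, stood at 77.5 and 42.9 (−0.82) and Pax6 at 24.1 and 14.1 (−0.70). Neurod1, by contrast, stood at 69.2 and 65.5 (−0.08). The median of the 9 kept stayed between −0.61 and −0.51 under the other scalings and pseudocounts. In the list of beta cell metabolism Slc2a2, the glucose transporter GLUT2, was lower, at 161 and 75.8 (−1.07). The glucose-6-phosphatase gene G6pc2 stood at 166 and 92.9 (−0.82), and the other 10 kept were between −0.24 and 0.40. On the diabetogenic array of day 3 Slc2a2, Foxa2 and Pdx1 stood at 73.7, 37.6 and 47.6.

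The largest negative differences belonged mainly to dim genes. Of the 85 lower genes 55 passed through the untreated array alone, 45 were under 20 there, and 21 stood at 50 or more. The leading ones were Gprasp1 (27.4 and 2.28, −2.78), whose other bright probe set gave −0.49, Sult1c2 (21.8 and 1.91, −2.60), Slc31a1 (21.9 and 3.05, −2.25) and Mmel1 (20.2 and 2.83, −2.20). The others of the 20 largest, apart from Cela3b and Pde5a, were Slc5a4b, 4930483K19Rik, Magi1, Ubtfl1, Pbsn, 4933421I07Rik, Lman1l, C1qtnf9, Krt28, Insc, Eapp, Gemin7, Hbb-b2 and Tex36, at 10.1 to 22.9 in untreated and 1 to 6.20 in protected islets. Of the 20, Cela3b and Pde5a alone were at 10 or more on both arrays. Among the bright lower genes Hadh, a mitochondrial fatty acid dehydrogenase abundant in beta cells, stood at 2864 and 1167 (−1.29), and its other probe sets gave −1.12 and −0.68. Ttr, the thyroxine carrier transthyretin made by islet cells, stood at 3070 and 1519 (−1.01), with −1.34 to −0.90 from other probe sets. The chaperone gene Dnajb9 stood at 155 and 69.8 (−1.13), the only 1 of 16 endoplasmic reticulum stress genes kept that passed 2-fold. The median of those 16 was −0.02.

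Acinar cell transcripts, from the enzyme-secreting tissue around the islets, were bright on both arrays, although islets were the tissue captured. Of 24 genes kept, of 25 measured, 0 were higher and 2 lower. These were the elastase gene Cela3b (1341 and 408, −1.71), whose other 3 probe sets gave −1.64 to −0.11, and the granule lectin gene Zg16 (279 and 101, −1.44). Cela1 (253 and 267) and Cpa1 (136 and 173) were nearly level, and the list median was −0.44. Summed over the 25 genes measured the level was 3783 and 2346, with 17 of 25 negative, and summed over the 4 markers Cela1, Prss2, Cpa1 and Ctrb1 it was 900 and 855. Endothelial and collagen lists had 0 members past 2-fold, with medians of 0.18 over the 4 and the 5 members kept, and the vascular adhesion gene Vcam1 was under the filter. Of 30 cell cycle genes measured 4 were kept and 0 passed 2-fold.

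Other probe sets of the same gene were compared within the arrays. Of the 253 higher genes 117 had no other probe set and 87 had only dim ones. For the 49 with another bright one, every such probe set had the same sign in 39 and was past 2-fold the same way in 30. Of the 85 lower genes 16 had another bright probe set, all of the same sign in 13 and all past 2-fold in 2. These genes were picked for a 2-fold difference on the probe set used. The same shares over all genes kept were not computed, so the agreement has no background to be read against. Probe sets of a gene share the hybridisation, so they say nothing about other mice.

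**Figure D5:**
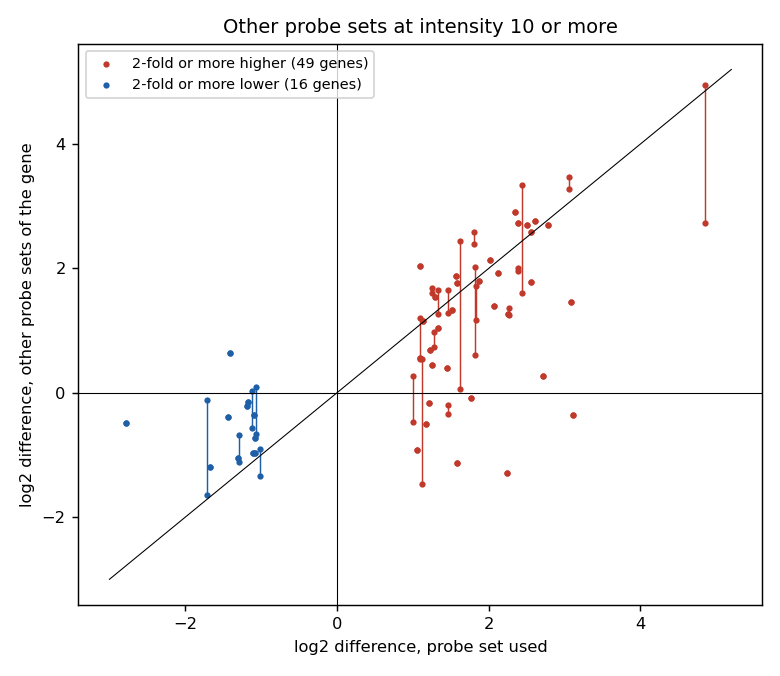
Difference (log2) given by the probe set used (horizontal) and by the other probe sets of the gene at intensity 10 or more (vertical, lowest and highest joined by a line) for 49 higher and 16 lower genes, with the line of equality. Of the higher genes 39 lie wholly above 0, while the lower genes cluster nearer to 0 on the vertical axis than on the horizontal one.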

How the data were processed

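The authors' deposited table holds linear intensities of 45101 probe sets on 8 Affymetrix arrays. Its summarisation and scaling are not given in the sources used. Per the labels' protocols, islets were laser-captured from methanol-fixed sections and the pooled RNA was amplified before labelling. Names came from the 2016 annotation of the platform, in which 34958 carry 1 symbol and were used, 932 carry several and 9211 none. The gene IDs of 34754 were found in RefSeq. A symbol with several probe sets is represented by the one brightest on average across all 8 arrays. Genes at 10 or more on either array were kept and log2(intensity + 2) was compared with no test, since each group has 1 array, whose number limits the precision.

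The genes to name were the 20 largest differences per direction, the 4 largest members kept of each of 41 lists and a fixed set of markers, of which the text gives the first in full and the list members in part, and other defining markers and genes under the filter were added after their values were seen. The members and lists were chosen with earlier results of these data known. 11 alternatives of pseudocount, scaling, probe set choice and filter were tried. Python 3.11.15, numpy 2.4.6 and pandas 2.3.3 were used.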

Additional observations from a re-analysis of the deposited data

Results flagged for a closer look

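Probe sets that carry no single gene symbol entered none of the comparisons, and some of them differed too. Of 859 such probe sets at intensity 10 or more on either array, 66 (7.68%) were 2-fold or more higher and 23 (2.68%) lower on the protected array of day 3. The shares of named genes were 5.10% and 1.71%. These are not like for like, since each named gene counts once and the unnamed probe sets are counted singly. The largest difference was between 1.62 in untreated and 59.4 in protected islets, and the next between 4.21 and 69.8. In diabetogenic islets of day 3 the same 2 had levels of 64.0 and 49.2.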

How the results depend on the processing

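The count of 253 higher genes was 303 with a pseudocount of 0.5 and 146 with 8, and that of 85 lower genes 122 and 28. It stayed within 1.5 times under median centring (288 and 66), bright scaling (290 and 72) and quantile normalization (258 and 87). Requiring intensity 10 on both arrays left 79 higher and 30 lower, and 30 on either array 94 and 28. With no filter 383 were higher and 210 lower. A mean of 10 over the 8 arrays gave 216 higher and 34 lower genes, and the mean of probe sets 169 and 42. The TIMP and metalloproteinase list, whose 2 members kept had a median of 1.44, reversed to −0.21 with no filter, with the filter on both arrays and with that on the mean of 8. With the probe set chosen by the 2 arrays H2-Ab1 turned to −0.36 and Cytip to −1.29. No other named gene past 2-fold changed sign, but sizes moved more. Among the genes chosen to be named, 56 moved by 1.5-fold or more with a pseudocount of 8 and 103 did not. With the mean of probe sets 22 moved and 120 did not. No paired analysis was possible because each group has 1 array. No replicate could be left out for the same reason, and how dim a signal the arrays resolve is not known without detection calls.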

Other observations

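Some glycolytic and hypoxia-related genes were higher. Of 16 measured 9 were kept and 4 were higher on the protected array of day 3, namely Ldha (3.64 in untreated and 24.7 in protected islets, log2 difference 2.24), Aldoa (61.3 and 173, 1.47), Hif1a (11.9 and 30.7, 1.23) and Slc2a1 (5.54 and 14.0, 1.08). Of the 9, 3 passed through the protected array alone, 2 of them higher. The other bright probe sets of Aldoa gave 1.28 to 1.65. Immediate early genes, which respond within minutes to stimulation or handling, had 3 of 5 members kept higher, with Ier3 at 13.8 and 65.1 (2.09), Jun at 8.40 and 22.7 (1.25) and Egr1 at 9.20 and 21.1 (1.04). Of the 5, 3 passed through the protected array alone, 2 of them higher.

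Of the inflammatory list 7 of 20 measured were kept and 2 were higher, the NF-κB inhibitor gene Nfkbia (93.2 and 333) and the iron-binding lipocalin gene Lcn2. Of the 7, 4 passed through the protected array alone, 1 of them higher, which is near the 25.2% of all genes kept that way. Il1b (5.69 and 12.8) lay within 2-fold. Among stromal genes Vim (58.8 and 210) and Lgals1 (19.5 and 85.3), which leukocytes also express, were higher with Fn1, while Dcn (11.8 and 7.29) and Bgn (46.5 and 30.5), proteoglycan genes of fibroblasts, stood lower but within 2-fold. The respiratory chain list had 0 of 28 members kept past 2-fold and a median of −0.17.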
